A study of Mus musculus with 17 samples.

Results

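The tubulin genes of megakaryocytes and platelets were followed together with Nfe2, the transcription factor gene best known for controlling the platelet isotype Tubb1. The 10 genes were chosen by name and found by their symbol in the table that holds the LUC and Arid3a libraries, which lists 47069 genes. They comprise 6 beta-tubulins (Tubb1, Tubb2a, Tubb2b, Tubb4b, Tubb5, Tubb6), 3 alpha-tubulins (Tuba1a, Tuba4a, Tuba8) and Nfe2. The same genes were found in the other tables by their Ensembl identifier, and all 10 were tested in every comparison.

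RNA sequencing was done on 17 libraries of fetal liver cells taken from mouse embryos at E12.5-13.5. All came from a knock-in strain that makes Cas9 and EGFP from the ROSA26 locus under a CAG promoter. In 14 libraries the cells carried the guide sgGata1, and the labels name them Gata1s cells after the short form of GATA1, a transcription factor needed for megakaryocyte maturation. These cells also had 1 µg/mL doxycycline and a second transgene. LUC (a luciferase control, n = 3) and Arid3a (n = 3) were collected after 48 h. The control hairpin sh-ctrl (n = 3), the Arid3a hairpin shArid3a (n = 2, numbered 1 and 3) and miR-125b (n = 3) were collected after 10 days. The WT group (n = 3) had sgLuc as guide and shLuc as hairpin, both aimed at luciferase. No doxycycline and no time of collection are recorded for it. The controls LUC and sh-ctrl are therefore Gata1s cells too. No label says that libraries of a group came from separate cultures or litters, so the p-values measure the spread between these libraries, which may be technical.

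Tubulin is a dimer of an alpha and a beta chain, and mammals carry several genes for each chain. Late megakaryocytes switch on Tubb1, whose product makes up most of the beta-tubulin in the coiled microtubule band that holds platelets in their disc shape. NF-E2, a dimer of the Nfe2 product with a small Maf protein, drives Tubb1 and other genes of platelet release, and loss of either Nfe2 or Tubb1 lowers platelet number in mice.

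Some sequences help in reading the comparisons. The mature miR-125b-5p of RefSeq (GRCm38.p6) is shown because it is the overexpressed molecule, with its seed, bases 2 to 8, in capitals.
mmu-miR-125b-5p: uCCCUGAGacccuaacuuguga
The perfect match to this seed is CTCAGGG, and CTCAGGGA is its 8-base form. Of the 10 genes, 9 have an annotated 3′ untranslated region (UTR), Tubb1 having none in GENCODE M21. The longest annotated UTR of each gene was searched. Tuba4a was the member with a match, at bases 829 to 836 of a UTR of 1394 bases. Of the 50-base windows of that transcript, 47.7% also occur in Stk16, a gene overlapping it on the other strand. Whether the site lies in the shared part was not checked. The Tuba4a site is shown with the match in capitals.
Tuba4a site: cccctccctggtgaCTCAGGGA
Among 21037 genes with a 3′ UTR, 13.1% held a 7-base or 8-base match, and 4.59% held the 8-base form. Arid3a, the gene the study is built on, held 6 matches, 2 of them of 8 bases.

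The stretch before the Tubb1 start site is shown because Tubb1 is a known NF-E2 gene. It lies at chr2:174450511-174450540 (GRCm38.p6, plus strand), and the 10 bases in capitals lie 74 to 65 bases before the RefSeq start.
Tubb1 upstream: atctaggaaaTGACTGAGCAcagcgcagga
On the minus strand the capitals read TGCTCAGTCA, which differs from the 10-base NF-E2 motif by G5C, counted from the motif's 5′ end. The search with 1 mismatch allowed was chosen after the sequence was seen. Such a run occurs on either strand in 2.51% of 32851 RefSeq promoters of 250 bases. The inner core of the motif, TGANTCA (6.75% of promoters), was in none of the 7 members whose promoter was in the table. GATAA, the core GATA motif (22.6%), was in those of Tubb4b and Tubb5. A match is a run of letters and not a measured binding site.

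Library totals were 31339238 to 40859301 counts in the Gata1s libraries and 16362439 to 19212193 in WT. Arid3a itself was not called between the libraries labelled Arid3a and LUC, with a log2 fold change of 0.08 (standard error, SE, 0.12, adjusted p = 0.737 in edgeR's quasi-likelihood test). Replicates 2 and 3 of that group, at 69.2 and 74.5 CPM, were above the LUC range of 59.3 to 64.7 CPM, and replicate 1, at 53.3 CPM, was below it. It was lower in shArid3a (-1.43, adjusted p = 0.0368) and in miR-125b (-2.56, adjusted p = 0.000282) than in sh-ctrl. Megakaryocyte markers were present in every library. The 15 markers summed to 3017 to 5509 CPM (each library's counts scaled to a common total) in Gata1s libraries and 1394 to 1613 in WT. Itga2b and Pf4 had the highest levels of the list in every group, WT included. By group mean, 5 markers (Ppbp, Vwf, Treml1, Clec1b and Selp) were highest in WT. The 15 myeloid markers summed to 14960 to 20138 CPM in WT and to 13.1 to 192 CPM in Gata1s libraries. The 12 mast cell and basophil markers summed to 1796 to 2071 CPM in WT against 202 to 938, and the 8 hepatocyte markers reached at most 6.46 CPM anywhere.

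Tubb1, the platelet beta-tubulin, was scarce in Gata1s cells and clearly present in WT cells. Tubb1 (ENSMUSG00000016255, chromosome 2, 174450695 to 174457882, plus strand, mm10) stood at 18.7, 22.7 and 16.1 CPM in the 3 WT libraries. Here too CPM has the TMM scaling over all 17 libraries. In LUC it was 0.843, 1.54 and 2.26 CPM, and in sh-ctrl 2.49, 0.735 and 2.12 CPM. Every WT library was above every Gata1s library. The WT mean of 19.2 ± 3.35 CPM (SD, n = 3) was 12.4 times the LUC mean, 10.7 times the sh-ctrl mean and 18.1 times the mean over the 14 Gata1s libraries (1.06 CPM). WT was above all Gata1s libraries for 19.2% of 12275 genes with a mean of at least 1 CPM, so such separation is common between these tables. WT differs in guide, recorded doxycycline, second transgene and deposited table at once, and its time of collection is not recorded, so no test was made. Which of these goes with the difference cannot be told apart, nor can the part of the myeloid marker RNA given above. In bulk RNA, fewer cells of a type and less RNA per cell cannot be told apart either.

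Within the Gata1s groups Tubb1 was lowest in miR-125b. The values were 0 (no counts), 0.367 and 0.308 CPM in miR-125b, 0.959 and 0.134 CPM in shArid3a, and 0.856, 1.04 and 1.14 CPM in the libraries labelled Arid3a. By group mean the order was WT, sh-ctrl, LUC, Arid3a, shArid3a, miR-125b. Only WT and sh-ctrl, among neighbours in that order, had ranges that did not overlap. The miR-125b values rest on 0, 12 and 11 counts and the lower shArid3a value on 4 counts. The library with 0 counts allows a level up to 0.107 CPM (3 counts, counting error only).

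Nfe2 ran the other way between WT and Gata1s cells. Nfe2 (ENSMUSG00000058794, chromosome 15, 103248212 to 103258403, minus strand) was at 259, 228 and 200.1 CPM in WT, 446, 460.2 and 447 CPM in LUC, and 482, 660.3 and 532 CPM in sh-ctrl. It was at 353, 405 and 423 CPM in the libraries labelled Arid3a, 531 and 689.9 CPM in shArid3a, and 407, 444 and 501 CPM in miR-125b. Every Gata1s library was above every WT library, and the mean over the 14 was 2.12 times the WT mean. The group order was shArid3a, sh-ctrl, LUC, miR-125b, Arid3a, WT, and only sh-ctrl over LUC and Arid3a over WT were neighbours without overlap. The group with the most Tubb1 RNA was thus the one with the least Nfe2 RNA.

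**Figure D1:**
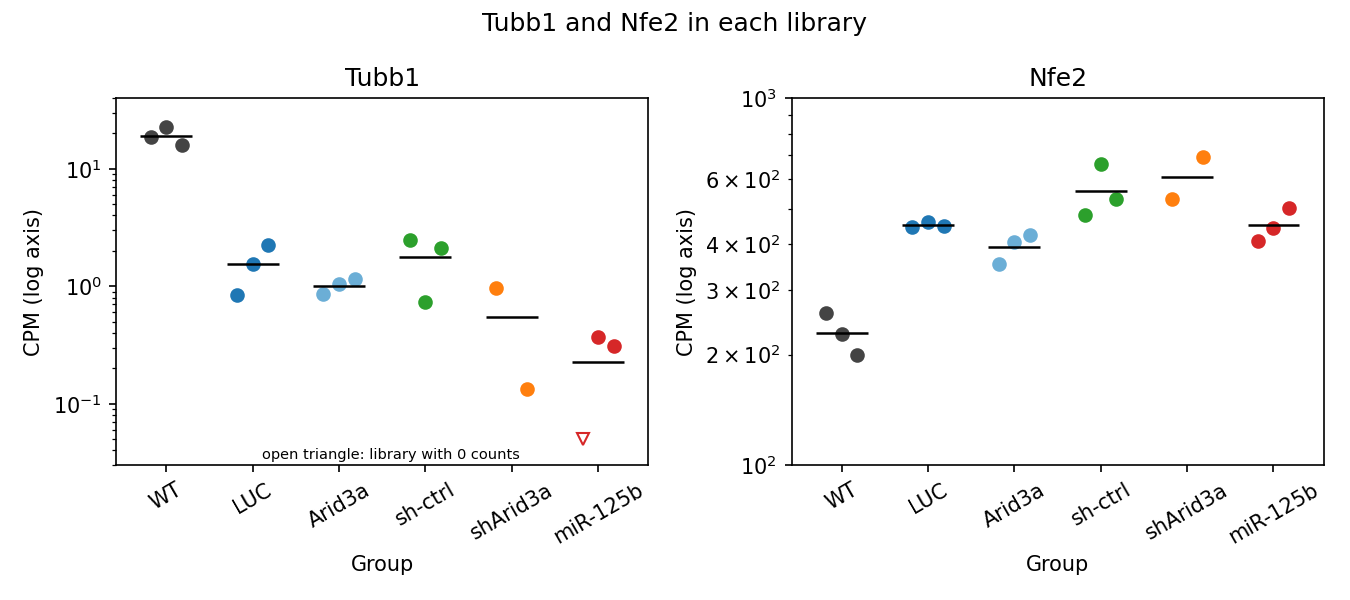
Level of Tubb1 (left) and Nfe2 (right) in each library, in CPM on log axes, by group. Points are libraries and lines are group means. All 3 WT libraries are above 16 CPM for Tubb1 and below 260 CPM for Nfe2, and the open triangle marks the miR-125b library with 0 Tubb1 counts at an arbitrary height.

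Of the other tubulins, 4 were lower in all WT libraries than in any Gata1s library. These were Tuba8, Tuba4a, Tubb4b and Tubb5, besides Nfe2, and 20.3% of the 12275 genes had this pattern. For Tubb5 this depended on the scaling. With TMM within each table its ranges overlapped, with 1266 CPM in WT replicate 1 and 1229 CPM in sh-ctrl replicate 3. Tuba8, an alpha isotype of muscle, testis and platelets, had the widest gap among them, at 72.4, 65.9 and 53.8 CPM in WT against 179 to 348 CPM in Gata1s libraries. The mean over the 14 Gata1s libraries was 4.14 times that of WT for Tuba8, 2.36 times for Tuba4a (the main platelet alpha isotype, 355 to 465 CPM in WT), 2.30 times for Tubb4b and 1.62 times for Tubb5. Tubb2a, Tubb2b, Tubb6 and Tuba1a had overlapping ranges.

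The abundant beta isotypes were above 300 CPM in every library. Tubb5, the common beta-tubulin of dividing cells (chromosome 17, 35833921 to 35838306, minus strand), was at 1133, 1068 and 941 CPM in WT, 1463, 1491 and 1494 CPM in LUC, 1359, 1289 and 1281 CPM in Arid3a, 1430.2, 1781 and 1359 CPM in sh-ctrl, 2302 and 2215 CPM in shArid3a, and 2563, 1928 and 1758 CPM in miR-125b. Tubb4b, a widely used isotype also found in cilia (chromosome 2, 25222160 to 25224702, minus strand), was at 440.1, 410.4 and 322 CPM in WT, 657, 744 and 726 CPM in LUC, 627, 673 and 664 CPM in Arid3a, 782, 1053 and 753 CPM in sh-ctrl, 1056 and 1245 CPM in shArid3a, and 1348, 1135 and 1102 CPM in miR-125b. Both genes were highest in the shArid3a and miR-125b groups, which overlapped each other.

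Among the alpha chains, Tuba4a (chromosome 1, 75214228 to 75219865, minus strand) was at 465, 432 and 355 CPM in WT, 759, 878 and 863 CPM in LUC, 587, 651 and 652 CPM in Arid3a, 904, 1128 and 959.8 CPM in sh-ctrl, 1048 and 1346 CPM in shArid3a, and 1454, 1254 and 1333 CPM in miR-125b. Tuba8 (chromosome 6, 121210696 to 121226854, plus strand) was at 209, 228 and 238 CPM in LUC, 277, 179 and 189.9 CPM in Arid3a, 290.0, 302 and 246 CPM in sh-ctrl, 331 and 316 CPM in shArid3a, and 348, 247 and 312 CPM in miR-125b. Tuba1a (chromosome 15, 98949841 to 98953551, minus strand) was at 76.1, 68.0 and 64.3 CPM in WT, inside the range of the Gata1s libraries.

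The rarer beta isotypes scattered more. Tubb2a, known from neurons and also made in platelets (chromosome 13, 34074301 to 34078008, minus strand), was at 16.2, 13.1 and 10.6 CPM in WT, 17.6, 13.4 and 16.1 CPM in LUC, 27.1, 22.8 and 18.7 CPM in sh-ctrl, 24.7 and 20.5 CPM in shArid3a, and 19.8, 10.5 and 14.5 CPM in miR-125b. Tubb6 (chromosome 18, 67390717 to 67402748, plus strand) was at 32.3, 33.9 and 25.5 CPM in WT and at 21.6, 17.1 and 17.3 CPM in LUC. Tubb2b, the close copy of Tubb2a (chromosome 13, 34127008 to 34130354, minus strand), was at 5.75, 3.85 and 2.66 CPM in WT, 0.925, 1.12 and 1.60 CPM in LUC, 2.12, 0.219 and 1.40 CPM in Arid3a, 2.43, 1.12 and 0.708 CPM in sh-ctrl, 1.14 and 0.569 CPM in shArid3a, and 2.68, 0.703 and 0.616 CPM in miR-125b. The WT mean of Tubb2b was the highest of the 6 groups, but its lowest WT library was just under the highest Gata1s library.

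Levels were compared between genes per kilobase of the deposited gene length. Tubb5 led the beta family in each group with 315 ± 29.4 CPM per kb (SD, n = 3) in WT, 446 ± 5.12 (n = 3) in LUC and 458 ± 67.9 (n = 3) in sh-ctrl. Tubb4b came next with 187 ± 29.5 in WT, 339.7 ± 21.9 in LUC and 413 ± 79.2 in sh-ctrl. Together these isotypes carried nearly all beta-tubulin RNA. Tubb5 made up 57.7% of the summed level of 8 beta-tubulin genes in WT and 49.5% to 55.1% in the Gata1s groups, and Tubb4b 34.1% in WT and 41.9% to 45.6% in the Gata1s groups. Tubb1 made up 2.49% ± 0.325 of beta-tubulin RNA in WT (SD, n = 3). In the Gata1s groups its share was 0.147% in sh-ctrl, 0.135% in LUC, 0.0981% in the libraries labelled Arid3a, 0.0311% in shArid3a and 0.0139% in miR-125b. A share within a library is unaffected by how the library is scaled.

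In the alpha family, Tuba4a made up 18.3% of the summed level of 8 alpha-tubulin genes in WT and 19.8% to 23.9% in the Gata1s groups. Tuba8 made up 4.59% in WT and 8.37% to 11.04% in the Gata1s groups, and Tuba1a, the isotype of young neurons, 6.87% in WT and 3.24% to 4.09% in the Gata1s groups. Most alpha-tubulin RNA came from Tuba1b, a general alpha isotype, at 50.2% to 57.2% in every group. The summed beta-tubulin level was 547 CPM per kb in WT, 809 in LUC, 736 in the libraries labelled Arid3a, 917 in sh-ctrl, 1268 in shArid3a and 1259 in miR-125b. Summed alpha-tubulin stood at 617 CPM per kb in WT, 1089.9 in LUC, 859 in the libraries labelled Arid3a, 1132 in sh-ctrl, 1614 in shArid3a and 1599 in miR-125b. Proliferation markers (16 genes) summed to 3722 to 4161 CPM in WT, 4361 to 4534 in LUC, 4275 to 4619 in the libraries labelled Arid3a, 4144 to 4644 in sh-ctrl, 5513 to 5561 in shArid3a and 4377 to 5323 in miR-125b, and their part in the tubulin levels was not tested.

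**Figure D2:**
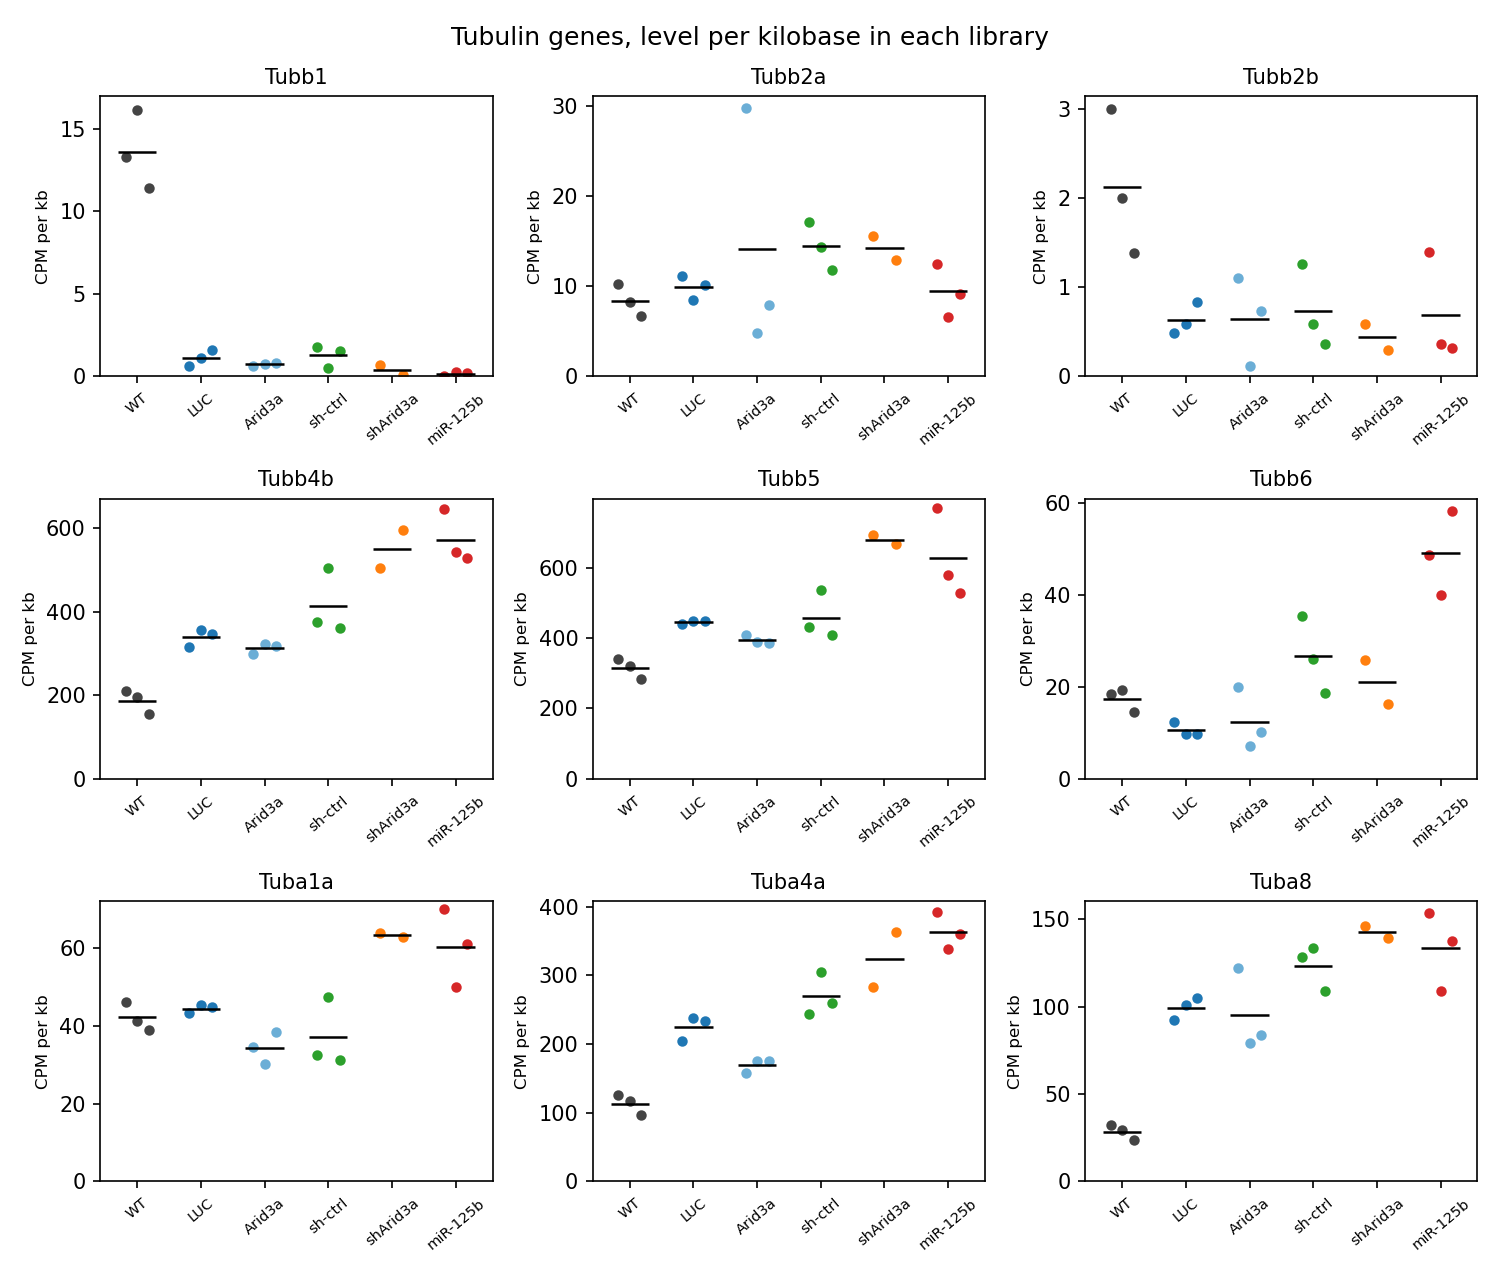
Level per kilobase of the 9 tubulin genes in each library (CPM per kb of deposited gene length, linear axes from 0, a scale for each gene), by group. Points are libraries and lines are group means. Tubb1 is high only in WT among these groups, while Tubb4b, Tubb5, Tuba4a and Tuba8 are lowest in WT.

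Some members share sequence with other genes. Windows of 50 bases were compared with all other annotated transcripts. For Tuba1a 75.5% of windows also occurred in another gene, most often Tuba1c. The figure was 49.6% for Tubb2a and 39.3% for Tubb2b, mostly each other, and 55.5% for Tubb4b, mostly a pseudogene. For Tuba4a 48.8% of windows were shared, nearly all with Stk16, a kinase gene that overlaps it on the other strand, and for Tuba8 14.7%, nearly all with the antisense gene Gm15856. Tubb4b is overlapped on the other strand by Fam166a. Reads of these pairs may have been split, left out or counted for the wrong partner. The authors' use of strand is not given in the sources used here, and no reads were examined. Tubb1, Tubb6 and Nfe2 shared no window with another gene, and Tubb5 shared 0.115%.

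The libraries labelled Arid3a were compared with LUC after 48 h, the comparison meant to show what more ARID3A does to Gata1s cells. No member was called, that is, none had an adjusted p under 0.05 over all 13495 genes in edgeR's quasi-likelihood test, and 0% of all genes were called (21.4% had an unadjusted p under 0.05). DESeq2, run without a prior filter on low counts, called 5.42% of 22085 genes and 2 members, Tuba1a and Tuba4a. Its shares are over this wider set of genes here and below. The sizes below are log2 fold changes with their SE. Tuba4a was at 587, 651 and 652 CPM against 759, 878 and 863 CPM, and Tuba1a at 57.1, 49.6 and 63.3 CPM against 71.2, 74.5 and 73.8 CPM. Their log2 fold changes were -0.40 (SE 0.08, adjusted p = 0.0867) and -0.37 (SE 0.10, adjusted p = 0.106). All 3 libraries labelled Arid3a were below all 3 LUC libraries for Tuba4a, Tuba1a, Tubb5 (-0.18) and Nfe2 (-0.20), and 14.4% of all genes were separated this way.

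Replicate 1 of the libraries labelled Arid3a stood apart from the other two. Tubb2a was at 47.2 CPM in it and at 7.67 and 12.53 CPM in the others, with 13.4 to 17.6 CPM in LUC. Tubb6, a beta isotype that loosens microtubules when abundant, was at 35.1 CPM against 12.49 and 18.0 CPM in the others. Its megakaryocyte markers summed to 4843 CPM against 3017 and 3179 in the others, its mast cell and basophil markers to 938 against 399 and 471, and its erythroid markers to 622 against 1334 and 1199. The part of these differences in the tubulin values was not tested. Without that replicate 4 members were called, all lower (Tubb5 -0.21, Tuba1a -0.37, Tuba4a -0.35 and Tuba8 -0.28), and 3198 of 13789 genes were called. Tubb1 was lower by mean (-0.61, SE 0.41, adjusted p = 0.432), with overlapping groups. The difference in its share of beta-tubulin was within the spread between libraries (exact permutation test, two-sided, p = 0.5, adjusted over 4 comparisons 0.5, with 0.1 the smallest p that 3 against 3 libraries allow).

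The Arid3a hairpin was compared with sh-ctrl after 10 days. No member was called, and 0.0857% of 14004 genes were (12 genes, 25.8% with an unadjusted p under 0.05). DESeq2 called 6.11% of 21664 genes and 1 member, Tuba1a. Tuba1a was at 105 and 104 CPM against 53.7, 78.0 and 51.4 CPM in sh-ctrl, a log2 fold change of 0.75 (SE 0.21, adjusted p = 0.101). Tubb5 was at 2302 and 2215 CPM against 1430.2, 1781 and 1359 CPM, a log2 fold change of 0.55 (SE 0.20, adjusted p = 0.136). Both genes, and Tuba8 (0.19), were higher in the 2 hairpin libraries than in all 3 controls, which held for 21.3% of all genes. Tubb1 had a log2 fold change of -1.69 (SE 1.07, adjusted p = 0.341). The value rests on few counts. It was -0.88 without shArid3a replicate 3, the library with 4 counts, and -3.73 without replicate 1. Its share of beta-tubulin gave p = 0.3 (exact permutation test, two-sided, adjusted over 4 comparisons 0.5), where 0.1 is the smallest p possible. Nfe2 had 0.10 (SE 0.18, adjusted p = 0.748), and -0.09 when scaled by library totals. Of 15 megakaryocyte markers 12 had negative and 3 positive values (median -0.49, all genes -0.02). Of 16 proliferation markers 15 had positive values and 1 a negative one (median 0.41). None of these markers was called, and their part in the values of the members was not tested.

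The miR-125b libraries were compared with sh-ctrl after 10 days, the comparison that asks what the microRNA does in Gata1s cells. Here 2 members were called, both higher, while 24.4% of all 14004 genes were called and 12.1% were called higher, so the members' share was near the background. Tubb6 was at 85.6, 70.3 and 102 CPM in miR-125b against 62.0, 45.9 and 32.7 CPM in sh-ctrl. It rose by 0.86 on the log2 scale (SE 0.26, adjusted p = 0.0362, edgeR). Tuba1a was at 115, 82.2 and 101 CPM against 53.7, 78.0 and 51.4 CPM, and it rose by 0.68 (SE 0.19, adjusted p = 0.0270). All 3 miR-125b libraries were above all 3 controls for both genes. Each gene was called in 12 of 17 alternative settings. Scaled by library totals instead of TMM, neither passed (0.68 with adjusted p = 0.0836 and 0.49 with adjusted p = 0.0657). Then the 2 called members were Tubb2a (-0.83) and Nfe2 (-0.51), both lower. That scaling moves the median of all genes from -0.03 to -0.22 and the genes called higher from 1700 of 3414 to 890 of 3342.

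Single libraries also decided the calls of Tubb6 and Tuba1a. The share of all genes called without each library is not given here, so this is not read as particular to the members. No member was called without sh-ctrl replicate 3 (Tubb6 0.64 with adjusted p = 0.130, Tuba1a 0.55 with 0.112) or without miR-125b replicate 3 (0.71 with 0.107, and 0.67 with 0.0641). Without sh-ctrl replicate 1 Tubb6 was called and Tuba1a was not (0.59, adjusted p = 0.0785). Without sh-ctrl replicate 2 Tuba1a and Tubb4b were called and Tubb6 was not (0.84, adjusted p = 0.0799). Without miR-125b replicate 1 the called member was Tubb2a (-0.88, adjusted p = 0.04204), while Tubb6 (0.87) and Tuba1a (0.57) had adjusted p of 0.0706 and 0.0806. With the replicate number as a block, Tubb6 and Tuba1a were called and Tubb2a was added (-0.66, adjusted p = 0.0354, against -0.63 and 0.0874 without it), among 26.3% of genes called. DESeq2 called 19.5% of 21664 genes (4217, against 3414 of 14004 filtered genes in edgeR). It called 6 members: Tubb4b, Tubb6, Tuba1a and Tuba4a as higher, Tubb1 and Tubb2a as lower. The DESeq2 share includes genes of very low count, so it is not a like background for the members.

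Tubb1 had the widest difference of the members in this comparison, with 23 counts in the 3 miR-125b libraries against 181 in sh-ctrl. The log2 fold change was -2.95 (SE 1.00), and the adjusted p of 0.0537 missed the threshold. All 3 miR-125b libraries were below all 3 controls, as for 23.1% of all genes. Over 16 alternatives the log2 fold change ranged from -3.46 to -2.40 and the adjusted p from 0.00250 to 0.138, and 6 of them called Tubb1, among them DESeq2 (adjusted p = 0.00470). The mean share of beta-tubulin was 0.147% in sh-ctrl and 0.0139% in miR-125b, with p = 0.1, the smallest that the exact two-sided permutation test allows (adjusted over 4 comparisons 0.4). In the same comparison 7 of 15 megakaryocyte markers were called lower and 1 higher (all genes: 12.2% and 12.1%), with summed levels of 3406 to 4318 CPM in miR-125b and 3635 to 5509 CPM in sh-ctrl and no marker at 0. Of 10 tested myeloid markers 4 were called higher (summed level 108 to 192 against 72.7 to 118 CPM). Of 12 tested erythroid markers 3 were called lower and 0 higher, with summed levels of 399 to 442 CPM against 602 to 912 CPM that did not overlap. Of 12 mast cell and basophil markers 2 were called higher (303 to 717 against 202 to 445 CPM). Their part in the values of Tubb1 and the other members was not tested.

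The remaining members did not pass. Tubb4b was at 1348, 1135 and 1102 CPM against 782, 1053 and 753 CPM (0.45, SE 0.17, adjusted p = 0.0762). Tuba4a was at 1454, 1254 and 1333 CPM against 904, 1128 and 959.8 CPM (0.41, SE 0.15, adjusted p = 0.0702). For both genes the groups did not overlap, the miR-125b libraries being the higher ones, as for 21.7% of all genes. Tuba4a is the member with the seed match shown above, and whether that site bears on its level was not tested. Tubb5 (0.43), Tuba8 (0.09), Tubb2b (-0.12) and Nfe2 (-0.33, adjusted p = 0.167) overlapped between the groups.

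miR-125b and the Arid3a hairpin were also compared directly. No member was called, and 1.35% of all genes were (14.5% had an unadjusted p under 0.05). DESeq2 called 3.4% of 21664 genes and 1 member, Tubb6. Tubb6 was at 85.6, 70.3 and 102 CPM in miR-125b against 45.4 and 28.4 CPM in shArid3a. Its log2 fold change was 1.22 (SE 0.30, adjusted p = 0.0812), and with the replicate number as a block it was 1.34 with adjusted p = 0.0351, which passes (1.82% of genes were called then). Every miR-125b library was above both hairpin libraries for Tubb6, as for 14.6% of genes. Tubb2a (-0.60) and Nfe2 (-0.43) were lower in all miR-125b libraries, as were 15.2% of genes. Tubb1 (-1.26, SE 1.07, adjusted p = 0.655) turned to 0.78 without shArid3a replicate 1. The hairpin and miR-125b comparisons share the sh-ctrl libraries, so their values are given side by side only. Against sh-ctrl, Tubb6 was -0.36 (adjusted p = 0.454) with the hairpin and 0.86 with miR-125b, Tuba1a 0.75 and 0.68, Tubb5 0.55 and 0.43, and Nfe2 0.10 and -0.33.

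**Figure D3:**
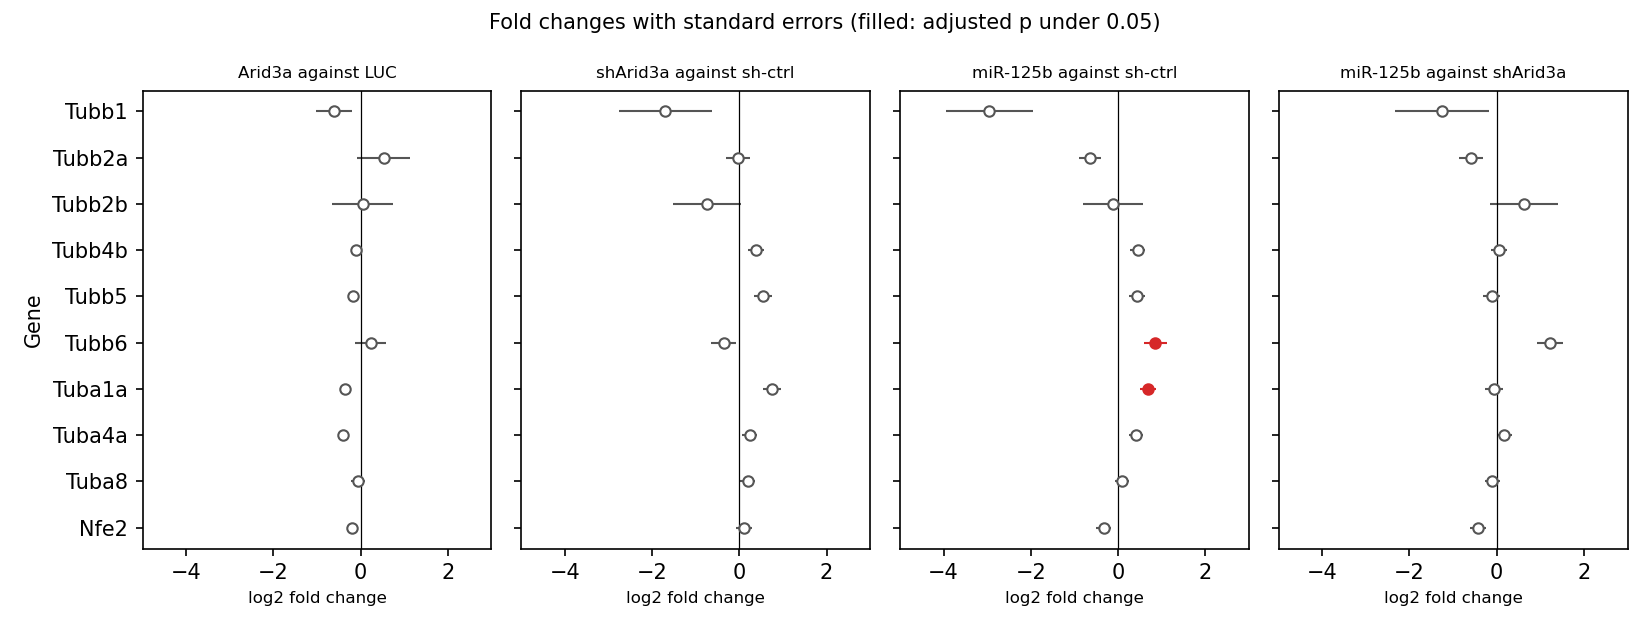
Log2 fold changes of the 10 genes in the 4 comparisons, with bars of 1 SE. Filled points had an adjusted p under 0.05, which holds for Tubb6 (0.86) and Tuba1a (0.68) in miR-125b against sh-ctrl. The widest bars belong to Tubb1 and Tubb2b, the genes with the fewest counts.

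The other tubulin genes give the rest of the family. Of 11, 7 were tested. Tuba3a had no counts in any library, Tuba3b and Tubal3 had 1 count each over all 17, and Tubg2 did not pass the filter. In miR-125b against sh-ctrl, Tuba1b rose by 0.59 (SE 0.18, adjusted p = 0.0401), a call lost with the replicate block (adjusted p = 0.0515), with library totals, and without any 1 of sh-ctrl replicates 1 and 3, shArid3a replicates 1 and 3, or miR-125b replicates 1 and 2. Tube1, epsilon-tubulin of the centriole, fell by 0.82 (SE 0.19, adjusted p = 0.0162), a call lost without sh-ctrl replicate 3. Of all genes 12.1% were called higher and 12.2% lower in this comparison. The 1 call in each direction among 7 genes is thus not read as a trait of the family. Tube1 too has an 8-base match to the miR-125b seed in its 3′ UTR. The gamma-tubulin gene Tubg1, which starts new microtubules, had 0.37 (adjusted p = 0.0570). None of the 7 was called in the other comparisons. Tubb3, the neuronal beta isotype, was highest by mean in WT (5.03 CPM) and lowest in miR-125b (0.709 CPM).

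Partners and rivals of Nfe2 were looked at next. Small Maf proteins pair with the Nfe2 product, and Bach1 competes for the same DNA sites as a repressor. In miR-125b against sh-ctrl, 2 of 6 tested genes of this list were called, both lower, where 12.2% of all genes were called lower. Mafk fell by 0.83 (SE 0.16, adjusted p = 0.00937, 32.3 against 57.2 CPM) and Bach1 by 0.96 (SE 0.16, adjusted p = 0.00651, 32.9 against 64.2 CPM). Mafg had -0.56 (adjusted p = 0.0611), and with the replicate block it passed (adjusted p = 0.0392). Against the same controls the Arid3a hairpin had -0.53 for Mafk, -0.74 for Bach1 and -0.60 for Mafg, with adjusted p of 0.122, 0.0997 and 0.139. None of the list was called with the libraries labelled Arid3a, where Bach1 had 0.39 and Mafk 0.27, nor between miR-125b and the hairpin. The CPM values given here for Mafk and Bach1, and below for Lims1, are scaled within the hairpin table.

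A short chosen list of known NF-E2 target genes other than Tubb1 was also followed. Of 5, 4 were tested, and in miR-125b against sh-ctrl all 4 had negative log2 fold changes with a median of -0.71, where the median of all genes was -0.03 and 48.4% of all genes were positive. Lims1, an adaptor at integrin contacts, was the gene that passed, falling by 0.87 (SE 0.12, adjusted p = 0.00431, 96.5 against 177 CPM). Of all genes 12.2% were called lower, so 1 call among 4 genes is not read as a trait of the list. Lims1 was also lower in miR-125b than in shArid3a (-0.67, adjusted p = 0.0383), where 1.35% of all genes were called. That call was lost with the replicate block (adjusted p = 0.0571). Rab27b, which moves platelet granules, had -0.55 (adjusted p = 0.0604), Tbxas1, thromboxane synthase, -0.38 (adjusted p = 0.298), and Casp12 -0.89 (adjusted p = 0.230). With the hairpin, Casp12 had -2.09 (adjusted p = 0.109), Lims1 -0.20, Rab27b -0.01 and Tbxas1 -0.49. With the libraries labelled Arid3a all 4 had positive values (median 0.25, all genes 0.01) and none was called. Hsd3b6 was not tested, with at most 6 counts in any group.

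Tubulin folding genes were mostly higher in miR-125b. Newly made tubulin passes from prefoldin to the CCT ring and then to the tubulin cofactors, which join the alpha and beta chains. In miR-125b against sh-ctrl 11 of the 20 genes rose and 1 fell (all genes: 12.1% and 12.2%), and the list's median was 0.50 on the log2 scale (all genes: -0.03). Tbcb rose by 0.97 (SE 0.15, adjusted p = 0.00548), Tbcc by 0.87 (adjusted p = 0.00826) and the prefoldin subunit gene Pfdn6 by 0.84 (adjusted p = 0.00791), while Tbcel, which takes tubulin apart, fell by 0.84 (adjusted p = 0.0229). The number rising was 6 with library totals, 7 without sh-ctrl replicate 1, 3 without sh-ctrl replicate 3, and 5, 6 and 5 without miR-125b replicates 1, 2 and 3. The share of all genes called without each of these libraries is not given here, so the lower counts are not read as particular to this list. With the Arid3a hairpin 18 of the 20 had positive values (48.4% of all genes) and a median of 0.46, but none was called (Vbp1 0.60 with adjusted p = 0.0989, Pfdn6 0.59 with 0.103). With the libraries labelled Arid3a 17 of 20 had negative values with a median of -0.13 and none was called (51.4% of all genes were positive).

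Enzymes that modify tubulin and proteins that bind microtubules were called in both directions. In miR-125b against sh-ctrl, 3 of 18 tested modification genes rose and 5 fell (median -0.10), where 12.1% of all genes rose and 12.2% fell. Vash1, a tubulin detyrosinase, fell by 1.41 (adjusted p = 0.0479). Agbl3 and Ttll3, which act on tubulin side chains, fell by 1.02 (adjusted p = 0.0291) and 1.00 (adjusted p = 0.0454). Tpgs1 rose by 0.87 (adjusted p = 0.0119). Of 23 tested microtubule-binding genes 4 rose and 2 fell (median 0.03), a share near the 24.4% of all genes called. Mapt, which encodes tau, fell by 1.03 (adjusted p = 0.00888) and the kinesin gene Kif5b by 0.52 (adjusted p = 0.0355), while the severing enzyme gene Katna1 rose by 0.67 (adjusted p = 0.0110) and the dynactin gene Dctn2 by 0.48 (adjusted p = 0.0274). Without sh-ctrl replicate 3, no modification gene and 1 microtubule-binding gene were called, and the share of all genes called in that fit is not given here. Mapt was the gene of these lists called with the Arid3a hairpin (-1.59, SE 0.23, adjusted p = 0.0375), and Spast, another severing enzyme, the one called between miR-125b and the hairpin (0.62, adjusted p = 0.0456, with the replicate block 0.0800).

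**Figure D4:**
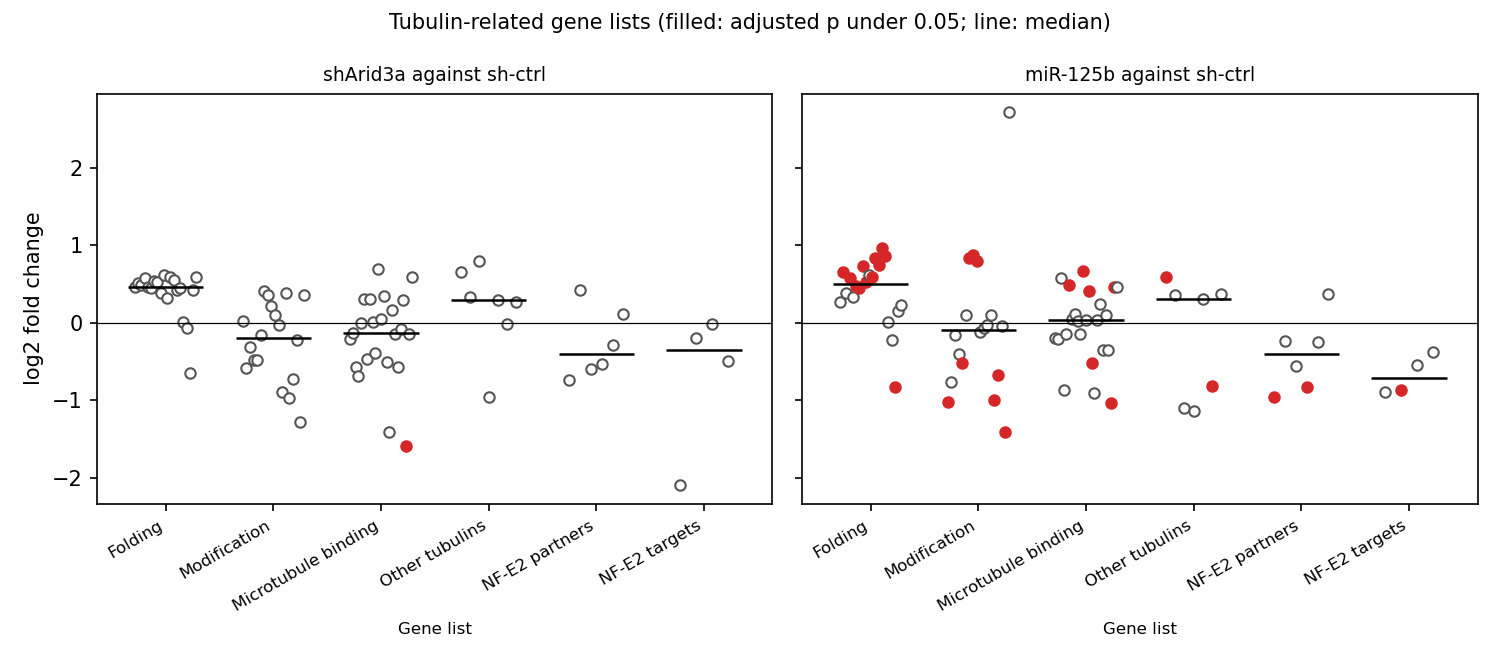
Log2 fold changes of tested genes of 6 lists, for shArid3a against sh-ctrl (left) and miR-125b against sh-ctrl (right), which share their controls. Each point is a gene, filled where the adjusted p was under 0.05, and lines are list medians. The folding list lies mostly above 0 in both panels (medians 0.46 and 0.50), with 12 filled points on the right and none on the left.

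Genes with the pattern most like Tubb1 over the 17 libraries were Acox3 (Pearson r = 0.961), Stat2 (0.960), Trim21 (0.956), Vwf (0.955) and Fam160a2 (0.954), out of 8539 genes averaging 3 or more in log2 CPM. For each of them the WT mean was the highest, as for Vwf, the von Willebrand factor of platelets, with 63.0 CPM in WT and 4.85 to 16.4 CPM in the Gata1s groups. Those most like Nfe2 were Slc41a3 (0.958), Polr3c (0.955), Acadl (0.955), Cpne5 (0.953) and Pef1 (0.953), all with their lowest mean in WT. The 17 points share tables and groups, so these values describe the pattern and carry no test.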

How the data were processed

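Each table deposited by the authors gives raw counts of reads, a row per gene and a column per library. Per the submitters' processing notes, fastp, HISAT2 2.0.5, featureCounts and mm10 were used. The use of strand is not given in the sources used here. Tables were joined by Ensembl identifier (46880 shared genes). The WT table also gives a deposited gene length in bases, used for CPM per kb. Levels are edgeR CPM with TMM scaling over 17 libraries.

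Tests ran on each table's counts in edgeR 4.0.16 under R 4.3.3 (TMM, filterByExpr, glmQLFit, glmQLFTest) with Benjamini-Hochberg adjustment over all genes tested and a threshold of 0.05. The 3 groups of the hairpin table were fitted together. SE came from the F statistics. DESeq2 1.42.0, other scalings and filters, a replicate block and leaving out libraries were alternatives. Fits were tested on simulated data.

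Members and lists were chosen with earlier results of these data known. Named genes were all members, every gene of the other-tubulin, Nfe2-partner and target lists, up to 4 called genes of largest change in the other lists (or the 2 with the smallest p where none was called), and the 5 most like Tubb1 and Nfe2. Of the 11 other tubulins those not tested are named with their counts.

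Same-numbered libraries deviated together: correlations over 11486 genes were 0.17, 0.42 and 0.11 for Arid3a with LUC and 0.53, 0.25 and 0.38 for miR-125b with sh-ctrl, so the numbers were taken as pairs there in the blocked alternative. The main fits and the permutation tests of the Tubb1 share leave the number out. For shArid3a only 2 pairs exist (0.50 and 0.20 with sh-ctrl). A library shArid3a 2 was not analysed here. No 2 libraries of a group agreed within counting noise (chi-square per degree of freedom 11.4 or more).

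Windows and 3′ UTRs came from GENCODE M21 (GRCm38), promoters and the microRNA from RefSeq. Gene positions are those of the WT table. Figures used matplotlib 3.10.9.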

Additional observations from a re-analysis of the deposited data

How the results depend on the processing

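Of the log2 fold changes of the members under alternatives, 579 kept direction and side of the threshold, 30 newly passed, 10 no longer passed and 27 changed sign. Levels were also rescaled by library totals and by TMM within each table. Of these, 86 stayed within the SD between libraries and 36 moved further. The number of called members was 2 with DESeq2 for Arid3a against LUC, and it lay between 0 and 4 when leaving out a library. For shArid3a against sh-ctrl it was 1 with no low-count filter, 1 with DESeq2 and 2 in 1 fit over all 17 libraries. For miR-125b against sh-ctrl it was 6 with DESeq2, 6 in 1 fit over all 17 libraries, and 0 to 3 without single libraries. For miR-125b against shArid3a it was 1 with no low-count filter, with DESeq2 and with the replicate block. The share of all genes called is not given here for the unfiltered, 17-library and most single-library fits. Those counts thus have no background and are not read as a trait of the members. In the blocked fits that pair libraries by number, Tubb2b turned to -0.31 for Arid3a against LUC and Tubb4b to -0.0025 for miR-125b against shArid3a, neither called. Apart from the calls given in the report, the block changed no call of a member. With library totals Nfe2 was -0.093 for shArid3a against sh-ctrl and Tuba8 -0.10 for miR-125b against sh-ctrl. Leaving out single libraries turned signs of uncalled values, with these ranges. For Arid3a against LUC these were -0.58 to 0.54 (Tubb2b), -0.63 to 0.94 (Tubb2a), -0.29 to 0.52 (Tubb6) and -0.28 to 0.061 (Tuba8). For shArid3a against sh-ctrl they were -0.20 to 0.12 (Tubb2a) and -0.066 to 0.27 (Nfe2), and for miR-125b against sh-ctrl -1.12 to 0.51 (Tubb2b) and -0.016 to 0.22 (Tuba8). For miR-125b against shArid3a they were -2.06 to 0.78 (Tubb1), -0.038 to 0.16 (Tubb4b), -0.38 to 1.23 (Tubb2b), -0.19 to 0.067 (Tuba1a) and -0.21 to 0.046 (Tuba8), and for the Tubb1 share of beta-tubulin -0.0409 to 0.00654 percentage points. The cause of these shifts was not tested. Requiring 10 counts in every library left Tubb1 untested in the hairpin table and Tubb2b in the LUC and Arid3a table. Tubb1 and Tubb2b rest on few counts in the Gata1s libraries, and with 2 or 3 libraries a group no exact permutation test could go below 0.1.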
